A study of Homo sapiens with 2 samples.

Results

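The m6A peaks described here carried a promoter label and lay wholly upstream of the transcript start that gave them that label. They were the rows of the deposited HCCLM3 peak table whose region label began with "Promoter" and whose signed distance to the nearest transcript start was below 0. There were 1462 such peaks among 39801 in all (3.67%) and among 5556 with a promoter label (26.3%). Of the other promoter-labelled peaks, 511 spanned the start and 3583 lay downstream of it. No measured value entered the choice. The label says where a peak lies relative to a start, and every value below is a peak's own value from 1 pair of libraries.

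N6-methyladenosine (m6A) is a modification of RNA that a nuclear methyltransferase complex places on adenosines within transcripts, often near stop codons and in 3′ untranslated regions. Sequence before a transcript start is not part of that transcript, so RNA captured there can come from other sources: the end of the gene before it, an RNA that starts nearby and runs the other way, a longer gene around it, or an earlier start of the same gene. Peak annotation by nearest start names the start and not the RNA. Head-to-head genes share a stretch of DNA and are transcribed away from each other, while tandem genes follow each other on 1 strand.

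The cells were of wild-type genotype from HCCLM3, a human hepatocellular carcinoma line of high metastatic capacity, grown with no treatment named in the labels. RNA captured by an m6A antibody (m6A-RIP) was 1 library and the unselected input RNA was 1 library, both made with a Magna RIP kit and a stranded low-input total RNA kit. With 1 library each there is no replicate check, no test could be made and none of the values below carries a p-value of its own.

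Fold is the authors' ratio, RIP over input at a peak's summit, with 1 added to both sides. The RIP fragments behind each peak, a whole number, and the input level around it were recovered from fold and p-value together. RIP fragments are given unscaled, and each counts as 0.642 on the scale of the input level because the RIP library was 1.56 times the size of the input. An interval on a fold is the exact 95% Poisson interval on the RIP fragments with input held fixed, and shares have 95% Wilson intervals. These cover counting error only, since the fragments carry no molecular identifiers and may be copies of 1 molecule. The q-value is the p-value as adjusted by the authors' peak caller.

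Of the gene lists chosen to check the cell type, 10 of 17 hepatocyte markers, 2 of 7 oncofetal liver markers, 1 of 7 immune markers and 1 of 8 endothelial and stromal markers held a peak of any kind. The hepatocyte marker ALB and the oncofetal markers AFP and GPC3 held none. The share of all coding genes that held a peak of any kind was not computed, so these counts do not settle the cell type. The only one of these genes assigned an upstream promoter peak was PECAM1, an endothelial adhesion gene, with 2 peaks in no gene of the table that held 37 and 27 RIP fragments against input levels of 4.44 and 2.37. The part of other cells in these was not tested. A peak list shows which RNA was captured above input and is no measure of expression.

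Some of the sequence under these peaks can be read, because the RefSeq promoter windows of GRCh38.p14 (250 bases before to 50 after a gene's start) overlapped part of them. The letters GGACT, the form of the m6A consensus that the methyltransferase favours most, were looked for on both strands. The search covered the 62 windows overlapped by peaks with a q-value under 0.05, and not every chromosome was searched. In these windows the letters occurred 23 times under 17 peaks, and no background rate was computed for the part of a window under a peak. The strand of the gene at the summit was known for 18 of these matches, and 13 of the 18 were on that gene's strand. The stretches below show the match in capitals with its neighbouring bases, 5′ to 3′ on the strand that carries it, for matches in 5 kinds of place. They were chosen after their values were seen.
ZSCAN29, inside the gene itself: tatatggttcGGACTcactgtgcaa
RSPH6A, in its tandem neighbour SYMPK: ggtgggacagGGACTcggggctggg
DNAJC14, in its head-to-head partner TMEM198B: ctctggtcctGGACTagagcagtag
PUS10, in its head-to-head partner PEX13: gcctatggatGGACTttgtgtgcaa
SMG5, in the opposite-strand gene TMEM79: ggccaggcctGGACTtcgcccccag
ZNF432, in no gene of the table: tctgttcagaGGACTttacccccac
LBHD1, inside the gene but on the other strand: cccaaaccctGGACTgactgcttta

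The ZSCAN29 match lay at chr15:43370279-43370303 on the minus strand (hg38), under a peak of 27 RIP fragments against an input level of 1.24 and a fold of 8.17 (5.53 to 11.7). The RSPH6A match lay at chr19:45815514-45815538 on the minus strand, which is also the strand of SYMPK, and its peak held 18 RIP fragments against 0.918 for input. The DNAJC14 match lay at chr12:55830715-55830739 on the plus strand, the strand of TMEM198B and not of DNAJC14, under 35 RIP fragments against 3 for input. In both of these pairs the letters were therefore on the strand of the neighbour's RNA. The PUS10 match at chr2:61018419-61018443 was likewise on the strand of PEX13, a peroxisomal import gene, under 8 RIP fragments against 0.622 for input. The SMG5 match at chr1:156291665-156291689 was on the plus strand, that of TMEM79, under 45 RIP fragments against 8.35 for input. The ZNF432 match, at chr19:52049056-52049080 on the minus strand, lay under 11 RIP fragments against 0.444 for input. The LBHD1 match at chr11:62672270-62672294 was on the plus strand under 140 RIP fragments against 18.0 for input. It shows that the letters also occur on the strand opposite to the gene at the summit.

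A match to such short letters is common in promoter sequence. The shares that follow are of whole windows, of which a peak may cover only a part. Of the 111 windows that an upstream promoter peak overlapped, 49.5% held GGACT on either strand (40.4 to 58.7, 95% Wilson interval), against 44.2% of all 35116 windows. The shorter GGAC, which every GGACT contains, was in 94.6% (88.7 to 97.5) against 87.4%. AAACA, a weaker form of the consensus, was in 39.6% (31.0 to 48.9) against 44.4%. The peak assigned to MZF1, a myeloid zinc finger gene, is an example with no GGACT. Its 229 bases that a window covers, at chr19:58573595-58573823 and written on the minus strand as MZF1 is, hold GGAC at 1 place, on the plus strand, where the same letters read GTCC here (capitals).
MZF1: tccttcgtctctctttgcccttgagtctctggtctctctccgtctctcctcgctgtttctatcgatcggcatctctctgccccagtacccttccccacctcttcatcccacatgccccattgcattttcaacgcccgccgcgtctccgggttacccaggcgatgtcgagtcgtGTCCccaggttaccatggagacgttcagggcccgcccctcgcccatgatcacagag

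The plus strand there is that of MZF1-AS1, the antisense RNA whose body holds the summit. That peak held 91 RIP fragments against an input level of 6, a fold of 8.48 (6.86 to 10.4). No match in a window says only that the letters are not in that window.

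The median upstream promoter peak held 13 RIP fragments (quartiles 5 to 34), against an input level of 1.18. In 221 peaks (15.1%) the RIP library gave 3 fragments or fewer. A peak of that depth describes those fragments and little more.

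Upstream promoter peaks passed the q threshold less often than promoter peaks on the transcribed side of the start. The authors' q-value was under 0.05 for 797 of the 1462 upstream peaks (54.5%, 52.0 to 57.1), against 63.5% of downstream promoter peaks (61.9 to 65.0), 60.7% of those spanning the start (56.4 to 64.8) and 48.8% of all peaks. At a q-value under 1e-5 there were 426 (29.1%, 26.9 to 31.5), against 36.5% downstream, 31.1% spanning and 25.8% of all peaks. The upstream share was thus between that of the downstream peaks and that of the whole list. The median fold was 3.34 upstream (quartiles 2.52 to 4.50) and 3.53 downstream, with folds upstream running up to 21.2. The depth differed too, with a median of 13 RIP fragments upstream against 19 downstream, and an input level of 1.18 against 2. Among peaks on at least 10 RIP fragments the medians were 3.97 upstream (3.82 to 4.05) and 4.02 downstream (3.95 to 4.08), with overlapping intervals. The difference in share ran through every distance. In the 6 bins of 500 bases from the start out to 3 kb, 51.3% to 58.0% of upstream peaks passed a q-value of 0.05, against 62.0% to 64.2% of downstream promoter peaks in the same bins, with intervals that overlapped in the 4 bins beyond 1 kb.

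The body of another gene held the summit of 899 upstream promoter peaks (61.5%), and only 250 (17.1%, 15.3 to 19.1) lay in the gene they were assigned to. The side of the start that chose the groups largely sets this, as sequence past a start belongs to that gene. Downstream promoter peaks had 89.7% in the assigned gene and 7.68% in another, and of the spanning peaks 76.1% lay in the assigned gene and 16.4% in another. The largest class, 462 peaks (31.6%, 29.3 to 34.0), lay in another gene on the same strand as the assigned one. A further 136 (9.30%) lay in a head-to-head partner, that is a gene on the opposite strand whose start was within 1 kb of the assigned start. Other opposite-strand genes held 167 (11.4%). Genes on both strands held 13, and for 121 (8.28%) the tables give no strand for one of the genes. No gene of the RefSeq table held the summit of 291 (19.9%, 17.9 to 22.03), and 22 were on contigs outside the main chromosomes and were not placed. The table gives no strand for a peak, so a peak under overlapping genes cannot be told apart between them.

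**Figure D1:**
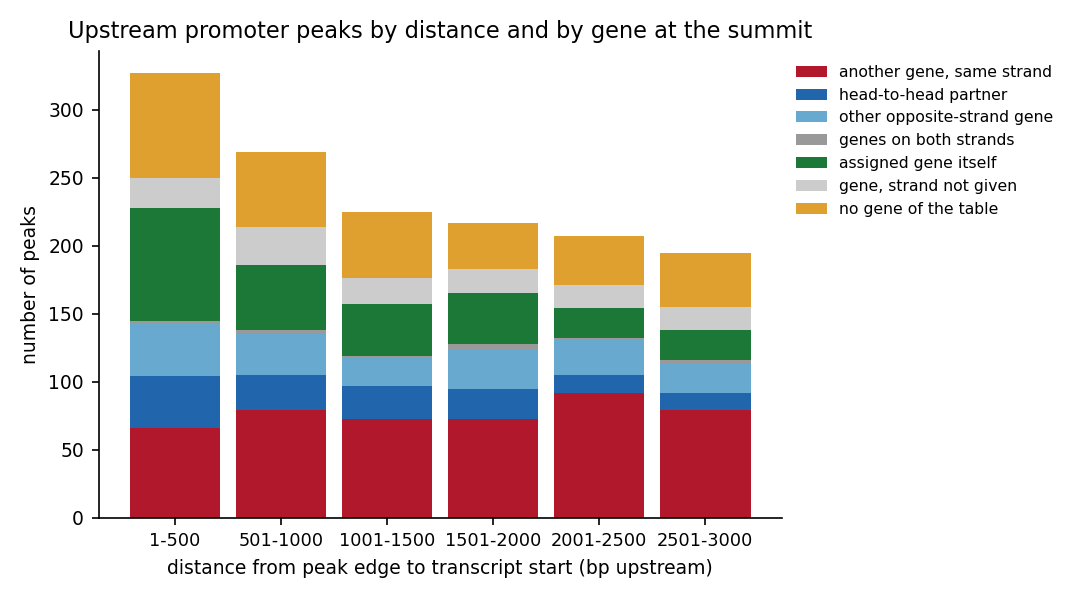
Number of upstream promoter peaks (vertical axis) by distance in bases from the peak's nearest edge to the transcript start (horizontal axis, bins of 500 bases), coloured by the kind of gene that holds the summit. Peaks become fewer with distance, from 334 in the nearest bin to 199 in the farthest (the 22 on other contigs are not drawn), while those in another gene on the same strand stay between 66 and 92 a bin.

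The mix of these classes shifted with distance. Among the 334 peaks within 500 bases of the start, 24.9% lay in the assigned gene itself, 19.8% (15.8 to 24.4) in another gene on the same strand and 11.4% in a head-to-head partner. In the bin from 2 to 2.5 kb the same-strand share was 44.4% (37.8 to 51.3), the share in the assigned gene 10.6% and that in a head-to-head partner 6.28%. The share in no gene was between 15.5% and 23.05% in all 6 bins and followed no order. The median fold was between 3.25 and 3.39 in every bin.

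How much upstream sequence each kind of gene covers sets what these shares mean. As a background, 129403 positions were laid every 500 bases, from 250 bases upstream of a start to under 3 kb, before the starts of protein-coding and lncRNA genes, and kept where that start was the nearest. They were compared with the 1230 peaks assigned to such genes. Another gene on the same strand held 29.3% of these peaks (26.8 to 31.9) and 5.65% of the positions. The last 3 kb of such a gene held 26.1% of peaks (23.7 to 28.6) and 2.93% of positions. Head-to-head partners held 10.6% of peaks (8.97 to 12.4) and 5.99% of positions, and the assigned gene itself 19.9% and 6.16%. Other opposite-strand genes were below their share of sequence, with 10.2% of peaks (8.67 to 12.1) and 15.4% of positions. Sequence in no gene held 20.8% of peaks (18.6 to 23.2) and 60.3% of positions. The background was not matched on expression, so genes that make no RNA in these cells count in it, and the part of expression was not tested. The peaks were measured from transcript starts in the deposited table, some of them inside genes. Those starts may differ from the ones of the background, which bears most on the share in the assigned gene itself.

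**Figure D2:**
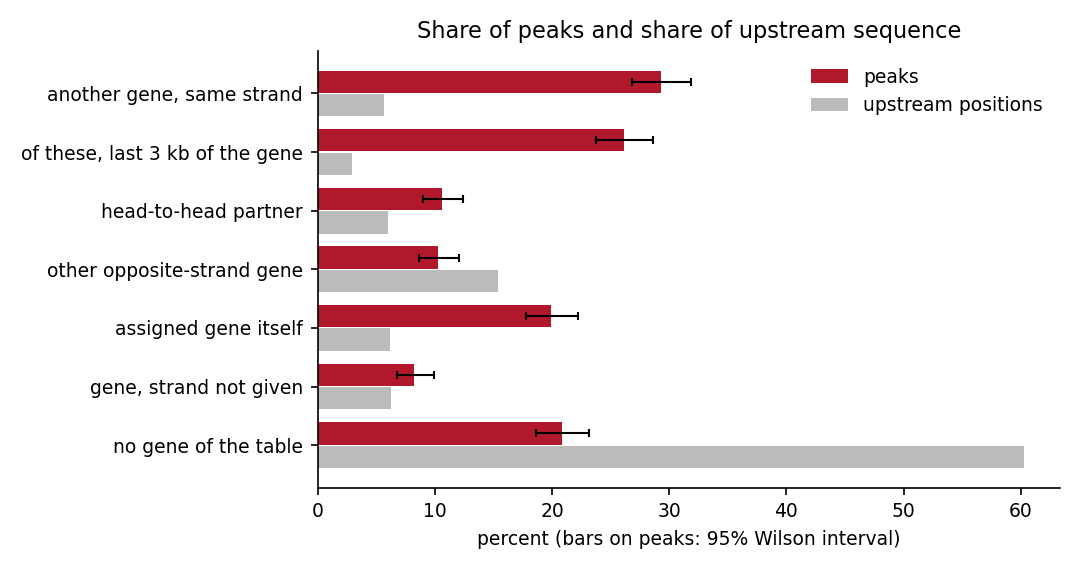
Percent of upstream promoter peaks (red, with 95% Wilson intervals) and percent of positions laid upstream of gene starts (grey) by the gene that covers them. Same-strand genes hold 29.3% of peaks and 5.65% of positions, while no gene holds 20.8% of peaks and 60.3% of positions.

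The peaks in another gene on the same strand were also the deepest of the large classes and passed the q threshold most often. Of the 462, 333 had a q-value under 0.05 (72.1%, 67.8 to 76.0) and 202 a q-value under 1e-5 (43.7%). They held a median of 30.5 RIP fragments against an input level of 3.85. Peaks in no gene held a median of 7 RIP fragments against 0.414 for input, and 111 of 291 (38.1%, 32.8 to 43.8) passed a q-value of 0.05. The order of the folds depended on which peaks were counted. Over all peaks the median fold was 3.50 for the same-strand class (3.35 to 3.72) and 3.10 for no gene (2.86 to 3.38). On at least 10 RIP fragments it was 3.82 for the same-strand class (3.62 to 4.03, 362 peaks) and 4.66 for no gene (4.20 to 5.06, 110 peaks), so the direction turned. That floor is on the RIP side of the ratio, so where input is low it keeps peaks that already have a high fold, and it does not set the depths equal. Of the peaks in no gene 67 (23.02%) rested on 3 RIP fragments or fewer, against 34 (7.36%) in the same-strand class.

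**Figure D3:**
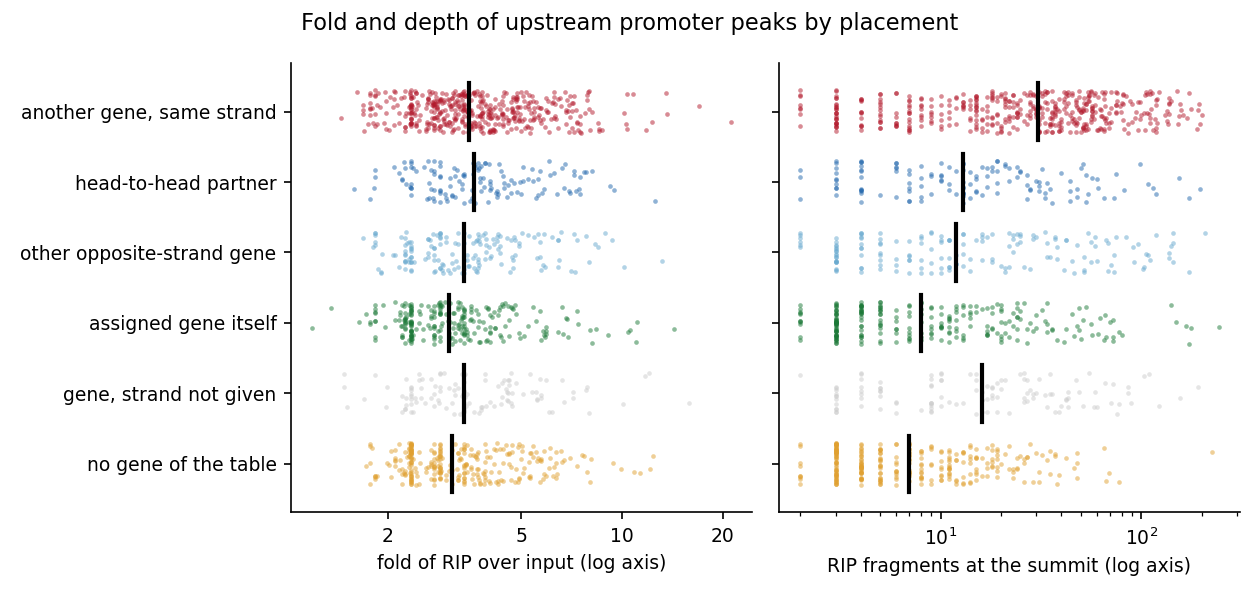
Fold of RIP over input (left, log axis) and RIP fragments at the summit (right, log axis) of each upstream promoter peak, 1 point a peak with vertical jitter, by the gene that holds the summit, with the median as a bar. Of the classes drawn, peaks in another gene on the same strand lie farthest right in depth, at a median of 30.5 RIP fragments, while the medians of fold differ little between classes.

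Most same-strand peaks lay towards the 3′ end of the gene before the assigned start, 345 of 462 (74.7%) in its last 3 kb. A protein-coding gene held 435 of the 462 (94.2%), and in 308 (66.7%) both genes were protein-coding. In 110 (23.8%) the assigned transcript was nested inside the holder, and in the other 352 it was not. For those 352, the summit lay a median of 557.5 bases from the holder's 3′ end (quartiles 209 to 1208), 232 of them (65.9%) within 1 kb. The promoter label reaches only 3 kb, so closeness to that end is partly set by the rule. Upstream positions of the background that fell in the last 3 kb of a same-strand gene lay a median of 894.5 bases from the end, and the 321 peaks there a median of 522. Within 500 bases of the end were 48.9% of those peaks (43.5 to 54.4) and 30.3% of those positions. The 345 peaks in a holder's last 3 kb held a median of 35 RIP fragments against an input level of 4.94. Of these, 263 (76.2%) passed a q-value of 0.05, beside 78.6% of the 5749 peaks labelled as 3′ untranslated region. Their median fold was lower, at 3.54 (3.37 to 3.78) against 4.12 (4.03 to 4.19) for that label. At a q-value under 1e-5 the shares were 48.1% (42.9 to 53.4) and 53.5% (52.2 to 54.8), with overlapping intervals. Nested genes were different. The summit lay a median of 27694.5 bases from the holder's end, and among the 81 same-strand peaks over 10 kb from it, 78 of them in nested pairs, 39 (48.1%) passed, on a median of 8 RIP fragments.

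**Figure D4:**
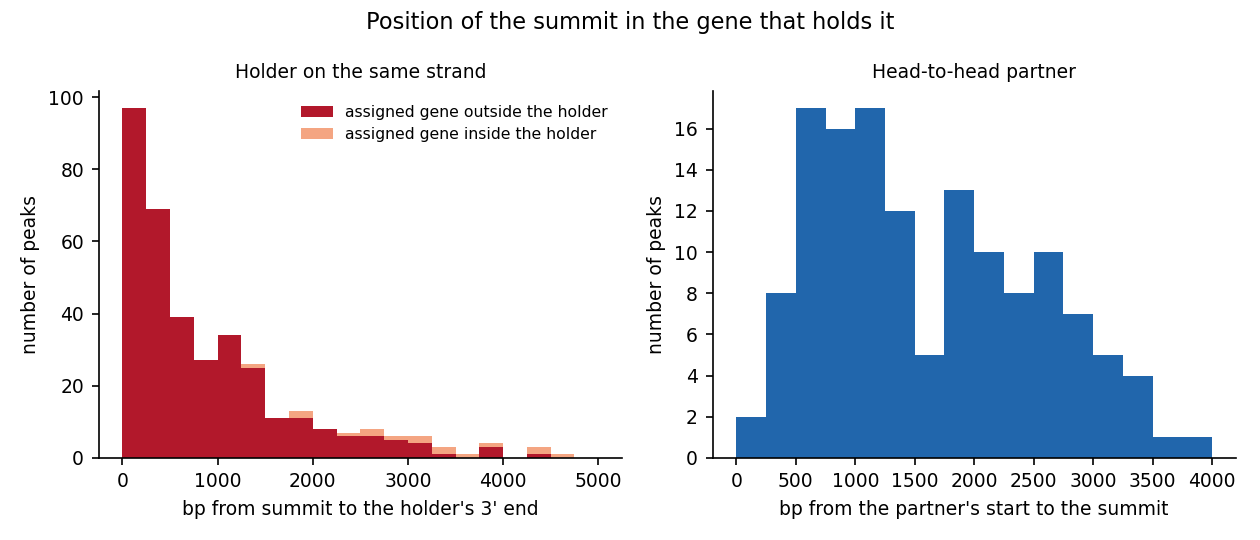
Number of upstream promoter peaks by position of the summit, in bases, from the 3′ end of a same-strand holder (left; dark where the assigned gene lies outside the holder, light where it lies inside, drawn to 5 kb) and from the start of a head-to-head partner (right). In same-strand holders the first 500 bases hold 166 peaks, while in head-to-head partners the median is 1445 bases.

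The strongest upstream promoter peak lay in RAB40C, a small GTPase gene with a SOCS box, and was assigned to WFIKKN1, a gene of a protein with protease inhibitor domains. It spanned chr16:627442-629407, with its summit 185 bases from the 3′ end of RAB40C. The RIP library gave 90 fragments against an input level of 1.78, a fold of 21.2 (17.1 to 25.9). The next lay in CAMK2G, a subunit gene of a calcium- and calmodulin-dependent kinase, and was assigned to NDST2, a heparan sulfate sulfotransferase gene. At chr10:73813642-73814307, 1382 bases from the end of CAMK2G, it held 78 RIP fragments against 2 for input, a fold of 17.0 (13.5 to 21.2). PLEKHO1, a pleckstrin-homology gene, held a peak assigned to LINC02988 at chr1:150158916-150159812, with its summit 591 bases before the gene's end, 113 RIP fragments against 4.44 for input and a fold of 13.5 (11.2 to 16.2). In these 3 the RIP level was far above input and the summit lay in the last 1.5 kb of a coding gene.

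Further strong peaks lay in another gene on the same strand, not all of them in the last 1.5 kb of a coding gene. PHF13, a chromatin reader gene, held a peak assigned to THAP3, 2290 bases from its end. It had 56 RIP fragments against 2 for input, a fold of 12.3 (9.38 to 15.9). EEF1D, a subunit of the translation elongation factor that reloads GTP, held one assigned to NAPRT, an NAD synthesis gene, with 104 RIP fragments against 4.74 for input. SRF, a transcription factor gene that responds to serum, held one assigned to CUL9 with 65 RIP fragments against 2.96 for input, 2102 bases from its end, a fold of 10.8. Deeper peaks lay in HOXB7, a homeobox gene, assigned to its neighbour HOXB6, and in MRM2, a mitochondrial rRNA methyltransferase gene, assigned to MAD1L1. The HOXB7 peak at chr17:48607463-48607986 held 158 RIP fragments against 14.0 for input, a fold of 6.82 (5.81 to 7.96). The MRM2 peak at chr7:2234213-2235350 held 154 against 14.8, a fold of 6.32 (5.37 to 7.39). Their folds were lower than that of RAB40C while their counting intervals were narrower. CHASERR, a lncRNA, held a peak assigned to CHD2, the chromatin remodeller gene that follows it, with 98 RIP fragments against 10 for input, a fold of 5.81 (4.73 to 7.06). A peak assigned to ASMT lay in AKAP17A with 25 RIP fragments against 0.246 for input. Its summit was 8234 bases from the 3′ end of AKAP17A, and the assigned ASMT start lies inside that gene. The peak was listed on the Y chromosome in the region that X and Y share, so reads of the copies cannot be told apart.

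**Figure D5:**
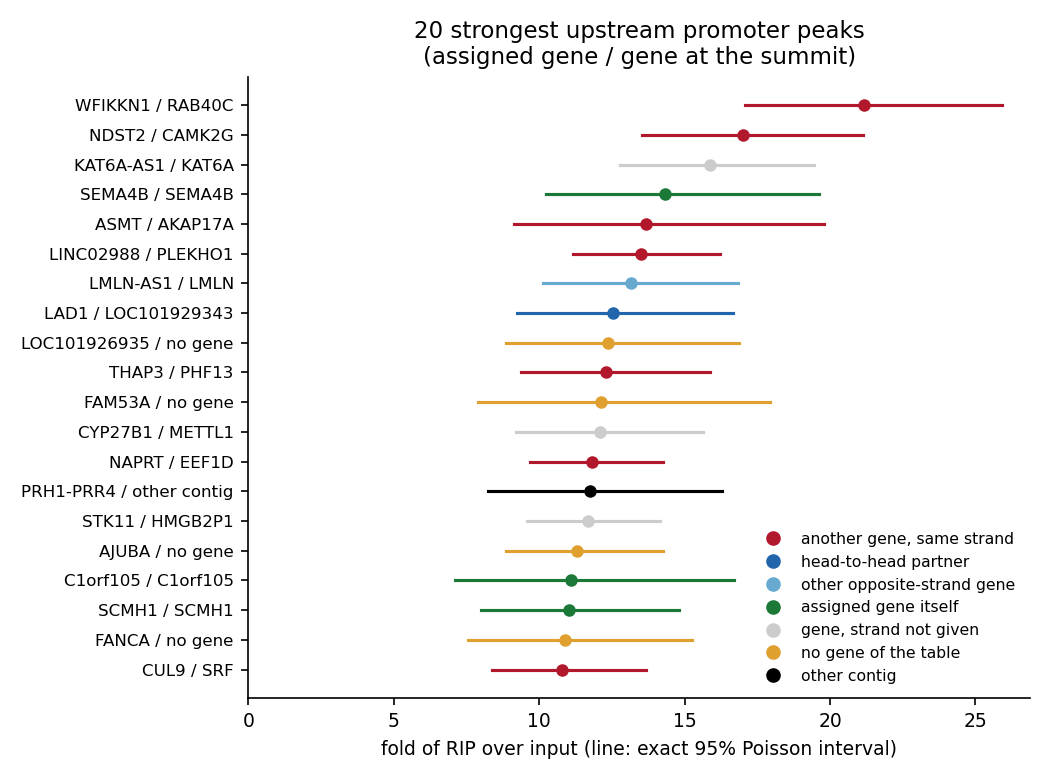
Fold of RIP over input of the 20 upstream promoter peaks of highest fold, with exact 95% Poisson intervals on the RIP fragments, named by the assigned gene and the gene that holds the summit. WFIKKN1 / RAB40C stands highest at 21.2 (17.1 to 25.9), and colours show that the 20 come from every large class.

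Some genes that held an upstream promoter peak assigned to another gene also held other peaks. Upstream promoter peaks were left out of these counts, and the share over all coding genes was not computed. Of 408 same-strand holders, 233 (57.1%) held another peak in the list, against 134 (32.4%) of the 413 genes that those peaks were assigned to. For peaks in a holder's last 3 kb these were 154 of 313 holders (49.2%) and 108 of 313 assigned genes (34.5%). In other opposite-strand pairs 106 of 136 holders (77.9%) and 55 of 140 assigned genes (39.3%) held another peak. Head-to-head pairs were the reverse, with 54 of 119 partners (45.4%) and 76 of 119 assigned genes (63.9%). These counts used position alone and not strand, so a peak in an assigned gene nested inside its holder counts for the holder too. Nesting applied to 110 of the 462 same-strand peaks and 113 of the 167 in other opposite-strand genes. For such pairs a higher share among holders is partly set by the counting. Longer genes also offer more room for a peak, and the part of length was not tested.

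The choice of head-to-head pairs keeps a summit near the partner's start, since the starts are within 1 kb and the label reaches 3 kb. The starts of the pair were a median of 219.5 bases apart, and the summit was a median of 1445 bases from the partner's start (quartiles 831 to 2304), with 90 of 136 (66.2%) within 2 kb. The partner was a lncRNA gene in 58 (42.6%, 34.6 to 51.0), of which 15 carry names ending in -DT, for divergent transcript, and both genes were protein-coding in 41 (30.1%). A q-value under 0.05 was reached by 79 (58.1%, 49.7 to 66.0), on a median of 13 RIP fragments against 1.18 for input. Their median fold was 3.63, and 4.32 (3.79 to 4.86) on at least 10 RIP fragments.

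The strongest head-to-head peak was assigned to LAD1, an anchoring filament gene, and lay in LOC101929343, a lncRNA whose start is 167 bases away. At chr1:201400983-201402244 it held 44 RIP fragments against 1.33 for input, a fold of 12.5 (9.22 to 16.7). ASH1L, a histone methyltransferase gene, and MSTO1, a mitochondrial distribution gene, start 443 bases apart, and the peak in MSTO1 held 31 RIP fragments against 1.27 for input, a fold of 9.19 (6.39 to 12.9). PTBP3, a splicing repressor gene, held a peak assigned to HSDL2 with 19 RIP fragments against 0.622 for input, a fold of 8.13 (5.14 to 12.4). These peaks have 19 to 44 RIP fragments, against 56 or more in the same-strand peaks described above from RAB40C to CHASERR, and 25 in AKAP17A. EXO5, an exonuclease gene, was assigned a peak that lay in EXO5-DT, with 14 RIP fragments against 0.296 for input, a fold of 7.70 (4.56 to 12.4). ZNF503, a zinc finger repressor gene, held 3 peaks assigned to ZNF503-AS2, with 44, 25 and 11 RIP fragments against input levels of 3, 1.18 and 0.592, and folds of 7.31, 7.80 and 5.06. H1-10, a linker histone gene whose start is 15 bases from that of H1-10-AS1, held a deep peak of 154 RIP fragments against 25 for input, a fold of 3.84 (3.26 to 4.49).

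Most peaks in other opposite-strand genes involved overlapping genes. In 113 of 167 (67.7%, 60.2 to 74.3) the assigned gene lay inside the holder, and 57 assigned genes (34.1%) have -AS in their names. The peak assigned to LMLN-AS1 lay in LMLN, a metallopeptidase gene, 2961 bases from its end, with 60 RIP fragments against 2 for input, a fold of 13.2 (10.1 to 16.8). PRDM4, a zinc finger transcription factor gene, held a peak assigned to PRDM4-AS1 with 96 RIP fragments against 6.51 for input, a fold of 8.33 (6.77 to 10.1). In both cases the holder is the coding gene and the assigned gene a lncRNA inside it. GATA2, a haematopoietic transcription factor gene, was the reverse: its peak lay in the antisense RNA GATA2-AS1 with 103 RIP fragments against 5.62 for input, a fold of 10.1 (8.29 to 12.2). The peak assigned to the pseudogene TMEM198B lay in DNAJC14, a chaperone gene, with 143 RIP fragments against 10.7 for input, a fold of 7.96 (6.72 to 9.36). The gap between starts runs from the assigned transcript start in the deposited table to the holder's RefSeq start. It was 1167 bases for this peak, beyond the limit for a head-to-head pair, and 28 bases for the peak assigned to DNAJC14 in TMEM198B, whose sequence is shown above, since other starts were used.

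In 250 peaks the assigned gene itself held the summit, so the start that gave the label lies inside the gene. The summit was a median of 13168.5 bases from the RefSeq start of the gene, and within 1 kb of it in 39 (15.6%). These peaks were shallow, with a median of 8 RIP fragments against 0.888 for input, and 100 (40.0%, 34.1 to 46.2) passed a q-value of 0.05, below the 48.8% of all peaks. SEMA4B, a semaphorin gene, had the strongest, at chr15:90188930-90189434, with 36 RIP fragments against 0.681 for input and a fold of 14.3 (10.2 to 19.6). NR2F2, an orphan nuclear receptor gene, had one of 80 RIP fragments against 4.74 for input, a fold of 9.12 (7.27 to 11.3). ZNF761 had 49 RIP fragments against 2.07 for input, a fold of 10.6, and SCMH1, a Polycomb gene, 41 against 1.48, a fold of 11.01. The lowest fold of all upstream promoter peaks was in this class, in SEPTIN9, with 176 RIP fragments against 95 for input and a fold of 1.19. Depth alone did not make a peak strong there.

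The 291 peaks in no gene of the table were the shallowest large class. Only 30 (10.3%) lay within 3 kb past the 3′ end of a same-strand gene, and 11 of these 30 (36.7%, 21.9 to 54.5) passed a q-value of 0.05, against 100 of the other 261 (38.3%, 32.6 to 44.3), so the shares overlap. One of those near an end was assigned to DVL1, a Wnt signalling gene, at chr1:1352110-1352798, 130 bases past the end of MXRA8, with 48 RIP fragments against 2.37 for input and a fold of 9.44 (7.04 to 12.4). AJUBA, a LIM domain adaptor gene, had a peak 272 bases before its start with 69 RIP fragments against 3 for input, a fold of 11.3 (8.86 to 14.3). FANCA, a Fanconi anaemia gene, had one with 31 RIP fragments against 0.918 for input, a fold of 10.9 (7.57 to 15.2), and FAM53A one with 22 against 0.246, a fold of 12.1 (7.90 to 18.0). Single peaks in no gene thus reached high folds although the class as a whole was shallow. LOC101926935, a lncRNA, had 3 peaks in no gene, with 37, 14 and 6 RIP fragments and folds of 12.4, 4.99 and 3.16.

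The strand of a gene was missing for 121 peaks, 67 of them with a protein-coding holder. One lay in KAT6A, a histone acetyltransferase gene, and was assigned to KAT6A-AS1, with 89 RIP fragments against 2.66 for input, a fold of 15.9 (12.8 to 19.4). METTL1, a tRNA methyltransferase gene, held the peak assigned to CYP27B1, the vitamin D hydroxylase gene, with 55 RIP fragments against 2 for input, a fold of 12.1 (9.19 to 15.6). The peak assigned to STK11, the LKB1 kinase gene, lay in the pseudogene HMGB2P1 with 103 RIP fragments against 4.74 for input, a fold of 11.7 (9.58 to 14.1). Pseudogenes share sequence with their parent genes, so where its reads come from is uncertain. INTS5, a subunit gene of the Integrator complex, held 3 peaks assigned to GANAB, with 37, 26 and 18 RIP fragments and folds of 6.18, 2.53 and 2.51.

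The number of peaks a gene was assigned stayed low. The 1462 peaks were assigned to 1272 genes, of which 1099 had 1 peak, 156 had 2 and 17 had 3, and no gene had more than 3. GTF3C2, a subunit gene of RNA polymerase III factor TFIIIC, had 3 peaks in its head-to-head partner GTF3C2-AS2, with 44, 13 and 13 RIP fragments and folds of 4.05, 4.005 and 3.72. The peaks of 1 gene can lie in different genes. ZNF446 had 2 peaks in its tandem neighbour ZNF324, with 52 and 20 RIP fragments and folds of 7.09 and 3.78, and 1 inside ZNF446 with 20 RIP fragments and a fold of 3.25.

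Peaks assigned to small RNA genes lay mostly in host genes. The assigned gene was protein-coding for 992 peaks, lncRNA for 257, miRNA for 120, a transcribed pseudogene for 63 and snoRNA for 15. Of the 120 assigned to a miRNA, 67 lay in another gene on the same strand and 27 in an opposite-strand gene other than a head-to-head partner, and 61 (50.8%) had a q-value under 0.05. MIR3614 lies in TRIM25, an antiviral ubiquitin ligase gene, and its peak held 106 RIP fragments against 7.70 for input, a fold of 7.94 (6.52 to 9.57). MIR6727 lies in INTS11, the endonuclease gene of Integrator, and its 2 peaks held 71 and 33 RIP fragments against 5.33 and 4.94 for input, with folds of 7.36 and 3.73. These peaks lie in the host gene and are named after a short RNA inside it. Of the 15 snoRNA-assigned peaks, 13 lay in a same-strand gene and 11 passed. An example is SNORA40 with 2 peaks in TAF1D, a polymerase I factor gene, of 137 and 46 RIP fragments against 16.0 and 12 for input and with folds of 5.23 and 2.35.

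Of the 27 writer, reader and eraser genes of the m6A machinery, none was assigned one of these peaks, METTL3 and YTHDF2 included. Of 20052 protein-coding genes 880 were assigned one (4.39%), and 503 had a peak that passed a q-value of 0.05. A peak assigned to another gene lay in 1 of the 27 (3.70%) and in 602 coding genes (3.002%). METTL16, a methyltransferase gene, held 1 peak near its 3′ end that was assigned to LOC284009, with 21 RIP fragments against 2.22 for input, a fold of 4.49 (2.90 to 6.71). Among the 24 immediate early transcription factor genes, MYC included, none was assigned an upstream promoter peak and none held one. In lists this short, a count of 0 cannot be told apart from the share of all coding genes.

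Of 19 genes of the CREB pathway, which CRTC2 serves as a coactivator, 2 were assigned a peak and 2 held one (10.5% each). Over all coding genes these shares were 4.39% and 3.002%, and no test was run on counts this small. PRKAR1A and STK11 were those assigned a peak. The q-value was under 0.05 for that of STK11 alone, and the peak assigned to PRKAR1A had 2 RIP fragments. CRTC2 held a peak assigned to DENND4B, at chr1:153947614-153948021, with 39 RIP fragments against 6.22 for input and a fold of 3.61 (2.60 to 4.88). The strand of CRTC2 is not in the tables used here. PRKACA, the catalytic subunit gene of protein kinase A, held 2 peaks assigned to SAMD1 near its 3′ end, at 511 and 1176 bases from it. They had 31 and 36 RIP fragments against 8 and 6.22 for input, with folds of 2.32 (1.61 to 3.25) and 3.34 (2.38 to 4.57), and the q-value was under 0.05 for the one of higher fold.

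Of 40 EGFR, MAPK and PI3K genes none was assigned an upstream promoter peak, while EGFR, ERBB3, PDPK1 and SPRY4 (4 of 40, beside 3.002% of all coding genes) held one each. The EGFR peak was assigned to EGFR-AS1, with 13 RIP fragments against 2 for input, a fold of 3.11 (1.81 to 5.09), and did not pass a q-value of 0.05. The ERBB3 peak, assigned to PA2G4, had 40 against 6.78, a fold of 3.43 (2.49 to 4.62). The PDPK1 peak, near the end of that kinase gene and assigned to LOC652276, had 41 against 8, a fold of 3.03 (2.21 to 4.08). These folds were near the median of 3.34 of all upstream promoter peaks. The SPRY4 peak, assigned to SPRY4-IT1, had 10 RIP fragments against 1.04 for input, a fold of 3.64.

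Of 40 Hippo and Wnt genes 7 were assigned a peak (17.5%), beside 4.39% of all coding genes, and 3 of them had a q-value under 0.05. DVL1 is described above. DVL2, its paralogue, had 2 peaks that lay in PHF23, with 193 and 52 RIP fragments against 44.0 and 10 for input and folds of 2.77 and 3.12. LRP5, a Wnt co-receptor gene, had one inside the gene with 17 RIP fragments against 1.04 for input, a fold of 5.85 (3.61 to 9.07). The peaks assigned to SAV1, STK3, TEAD3 and TEAD4 held 2 to 5 RIP fragments and did not pass. Conversely TCF7L2, a Wnt transcription factor gene, held the peak assigned to SNORA87, with 30 against 3.26, a fold of 4.76.

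Of 63 chromatin regulator genes 5 were assigned a peak (ASH1L, ASXL1, CHD2, NSD3 and TET3), 4 with a q-value below 0.05, and 9 (14.3%) held a peak assigned to another gene, beside 4.39% and 3.002% of all coding genes. KMT2D, a histone methyltransferase gene, held the peak assigned to PRKAG1, with 66 RIP fragments against 7 for input and a fold of 5.42. KMT2A, its relative, held that assigned to TTC36, with 52 against 7, a fold of 4.30. CHD8, a remodeller gene, held that assigned to SUPT16H, 320 bases from its end, with 57 against 9, a fold of 3.76, and another assigned to the snoRNA SNORD9. Those in KMT2A, KMT2D and CHD8 lay on the same strand as the assigned gene.

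Of 477 C2H2 zinc finger genes, many of which form tandem clusters on chromosome 19, 32 were assigned a peak (6.71%), 15 with a q-value under 0.05, and 16 (3.35%) held one assigned to another gene, beside 4.39% and 3.002% of all coding genes. Of 74 histone genes chosen by symbol none was assigned one and 1 held one. That gene, H1-10, codes for a linker histone that is not replication-dependent, unlike most of the list. Reads of near-identical histone copies may have been shared in alignment. Of 32 genes listed as head-to-head pairs, FANCA and ZNF276 were assigned a peak and SARS2 held one. The peaks of FANCA and ZNF276 began at chr16:89817816 and chr16:89717495, each within 3 kb of the start it was assigned to. Those starts are therefore far more than 1 kb apart, and this listed pair is not head to head by the rule used here. The ZNF276 peak lay in VPS9D1 with 17 RIP fragments against 4 for input, a fold of 2.38 (1.47 to 3.69), and did not pass. None of the 29 SNHG genes was assigned one, and SNHG14 held the peak assigned to SNORD116-1, with a fold of 3.46.

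The limits of the label cut through a continuous set of peaks. The closest to a start was that of BCL10-AS1 at 2 bases, with 21 RIP fragments against 3 for input and a fold of 3.62, and the farthest were those of PSD and APEH at 2999 bases, with folds of 4.58 and 3.16. Just beyond 3 kb on the same side, the peak assigned to LINC02875 at 3007 bases had 53 RIP fragments against 6 for input, a fold of 5, and that of COL9A3 at 3011 bases had 145 against 10.7, a fold of 8.07. Both carry a 3′ untranslated region label in the deposited table. The third, assigned to GCGR at 3016 bases with 16 RIP fragments against 3 for input and a fold of 2.82, is labelled distal intergenic.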

How the data were processed

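In all, 1 m6A-RIP and 1 input library of HCCLM3 cells were used. HISAT2, MACS2 and the build hg38 are named in the submitters' processing notes, without versions. Caller settings and the total depth of either library were not given in the sources used here. Deposited by the authors was 1 table of peaks called on the pair, each with its position, summit, region label, nearest transcript start and distance to it. Its fold column, named so in the deposited header, holds a ratio on a linear scale. Columns of −log10 p-values and, likewise, −log10 q-values have damaged headers in the deposited table, so what they hold was read from the values: the deposited score is 10 times the −log10 p-value rounded down for 99.99% of peaks. All of these were computed by the authors and serve here only to describe peaks of this list.

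RIP fragments (n) and input level were recovered by solving fold and Poisson p-value together with a pseudocount of 1 and a scale of 0.642. A whole number met both within 0.001 of −log10 p for 100% of peaks, only 1 number did for 98.2%, and 100% of 1000 simulated peaks were recovered. The simulated peaks were made with the same formula and scale, so they check the solving and not the formula. A gene held a peak if its body in the RefSeq gene table of GRCh38.p14 held the summit, taking protein-coding genes before lncRNA genes and those before others. Assigned genes matched that table for 1458 of 1462 peaks. Strands came from the RefSeq promoter and miRNA tables and the deposited table, which gave one for 88.1% of coding and 65.3% of lncRNA genes. Promoter windows existed for the genes of 981 peaks (67.1%).

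Named peaks were the 10 of highest fold, the 10 of highest −log10 p, up to 6 of highest fold with a q-value under 0.05 per placement, the 5 genes with most peaks (17 tied at 3, of which some are named), the 3 farthest with a q-value under 1e-5, up to 4 per gene list and CRTC2, YTHDF2, METTL3, MYC and EGFR, from which those described were taken; single peaks beyond the rule (the edges of the label, the miRNA and snoRNA examples and some list members) were chosen after their values were seen. The members and the lists were chosen with earlier results of these data known. No test was run, and peaks are not replicates. Medians have order-statistic intervals. Alternatives changed the q threshold, the depth, the distance, the holding rule and the gene types. Python 3.11.15 with pandas 2.3.3, numpy 2.4.6, scipy 1.17.1 and matplotlib 3.10.9 was used.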

Additional observations from a re-analysis of the deposited data

How the results depend on the processing

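Of 53 alternatives, 26 left a share or median within its interval or a list count within 1.5 times, 26 moved the value and 1 turned its direction. The share in another gene on the same strand, 31.6%, was 41.8% among peaks with a q-value under 0.05, 47.4% under 1e-5 and 23.8% within 1 kb of the start; that in the last 3 kb of such a gene, 23.6%, was 33.0%, 39.0% and 17.4%. The share in the assigned gene itself, 17.1%, was 12.5%, 8.92% and 21.5% under the same settings. The share in a head-to-head partner, 9.30%, was 11.03% under 1e-5 and 4.92% with only protein-coding genes, which also took other opposite-strand genes to 8.55%. The share in no gene, 19.9%, was 13.9% under 0.05, 10.6% under 1e-5 and 34.1% with only protein-coding genes, by construction since fewer genes can hold a peak. The share past the q threshold, 54.5%, was 29.1% at 1e-5 and 64.2% on at least 4 RIP fragments. The median fold, 3.34, was 4.34 under 0.05, 5.32 under 1e-5, 3.97 on at least 10 RIP fragments and 3.25 within 1 kb. With a q-value under 0.05, list counts were 1 for CREB genes, 3 for Hippo and Wnt genes, 1 for genes listed as head-to-head pairs and 15 for zinc finger genes. Without scaling of RIP to input, whole fragments were met for 1.32% of peaks. The median fold in same-strand genes minus that in no gene was 0.39, and -0.84 on at least 10 RIP fragments, an alternative chosen after seeing the data, whose floor on RIP fragments keeps high folds where input is low. No paired analysis was possible because each group has 1 library. Depth limits single peaks: 221 rest on 3 RIP fragments or fewer.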

Other observations

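The upstream promoter peaks were spread unevenly over the chromosomes. Chromosome 19 had 126 of them among 1767 peaks, or 7.13 per 100 peaks, chromosome 17 had 6.28 and chromosome 16 had 6.11 per 100. Chromosome 4 had 1.87 and chromosome 18 had 2.08 per 100, against 3.67 per 100 over the whole list. The first 3 are known as gene-dense and the other two as gene-poor. Peaks were not set against the number of starts on each chromosome, so the part of gene density was not tested.

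Outside the classes described above, 13 summits lay in genes on both strands, and 12 of these peaks had a q-value under 0.05. For each, the gene named here is only the first by symbol of those at the summit. A gene on the other strand also holds it and is not named. The peak assigned to PRKCZ-AS1 lay in FAAP20, a gene of the Fanconi anaemia core complex, and held 18 RIP fragments against 1 for input, a fold of 6.27 (3.92 to 9.63). That assigned to VTI1B, a vesicle fusion gene, lay in GPHN, the gene of the synaptic scaffold gephyrin, and held 116 RIP fragments against 15.1 for input, a fold of 4.69 (3.88 to 5.61). Of the 22 peaks on contigs outside the main chromosomes 7 had a q-value under 0.05. The strongest, assigned to PRH1-PRR4, held 33 RIP fragments against 0.888 for input, a fold of 11.7.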
